A study of Mus musculus with 6 samples.

Results

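The genes described here encode the enzymes and regulators of cholesterol and fatty acid synthesis. They were chosen by name as 34 genes, 20 in a sterol arm and 14 in a fatty acid arm, out of 55802 genes in the expression tables, and each was found as 1 entry. The RNA came from primary cultures of neural stem cells taken from the subventricular zone (SVZ), the niche beside the lateral ventricles of the brain, in adult C57BL/6 mice. In the 3 SETD4 OE samples the cells had been infected with ADV-SETD4-GFP, an adenovirus carrying SETD4, a lysine methyltransferase, together with the fluorescent protein GFP. The 3 control samples carried the WT genotype label and had received ADV-GFP, so both groups had adenovirus and GFP, with 24 h given as the infection time. The sources used here do not say which promoter drove SETD4. The design sets cells with added SETD4 against cells with the GFP virus alone. The labels number the samples but do not say whether they came from separate cultures or animals, so p-values measure the spread between these samples, which may be technical.

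Cholesterol is built from acetyl-CoA through mevalonate, the isoprenoid diphosphates, squalene and lanosterol, and the genes of this route are classically driven together by the transcription factor SREBP2. When membranes hold enough sterol, Insig proteins keep SREBP and its escort Scap in the endoplasmic reticulum, whereas excess oxysterol activates the nuclear receptor LXR, which raises sterol export and the Srebf1 gene. Fatty acid synthesis uses the same acetyl-CoA through acetyl-CoA carboxylase and fatty acid synthase, with SREBP1 as its usual driver, and elongases and desaturases then shape the chains. In the brain cholesterol is made locally, and neural stem cells have been described as using newly made fatty acids while they proliferate.

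The libraries held 14924273 to 16045138 reads over the listed genes in SETD4 OE and 16007182 to 18078717 in the controls. Levels are in FPKM, which divides the reads of a gene by its length and by a size for the library. That size, recovered from the values, was 15540791 to 16659555 in SETD4 OE, above the listed reads of every library. In the controls it was 15905519 to 17594162, below the listed reads of every library. FPKM in SETD4 OE are thus lower against the reads than in the controls, and other scalings are given below. A gene is called changed where limma's adjusted p was under 0.05. Setd4 itself was at 295.5, 346.4 and 332.8 FPKM in SETD4 OE and at 0.952, 0.972 and 1.53 FPKM in the controls (log2 fold change 7.25, SE 0.12). Reads of the construct and of the cells' own gene cannot be told apart in this value. Of 9 markers of neural stem cells and progenitors all 9 were tested, and 6 rose and 3 fell. Sox2 rose to a mean of 190.2 FPKM in SETD4 OE, against 162.1 FPKM in the controls, whereas Nes fell to 42.7 FPKM in SETD4 OE, against 116.5 FPKM in the controls, and Fabp7 and Vim fell too (-0.46 and -0.34 on the log2 scale). The 8 microglial markers summed to 1.74 to 2.12 FPKM in SETD4 OE and 0.826 to 1.22 FPKM in the controls, and none reached 1 FPKM on average over all 6 libraries. Of 7 endothelial markers Cldn5 was at 0 in all libraries, and the 1 tested, Flt1, fell to 0.618 FPKM in SETD4 OE, against 3.43 FPKM in the controls. Control replicate 1 stood apart from the other controls. Mitochondrially encoded genes took 3.78% of its reads, against 2.45% in each of the other two and 3.52% to 3.73% in SETD4 OE.

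Most of the sterol arm fell in SETD4 OE, and the fatty acid arm was divided. The counts describe the arms, and the difference between them was not tested. Of 20 sterol arm genes 19 reached the mean of 1 FPKM needed for the test, and 13 of these 19 fell and 0 rose (limma; also 0 at an unadjusted p under 0.05 and with limma-voom), where 33.9% of all 12994 tested genes fell and 26.0% rose. Among all calls 43.4% were thus higher, a share that was 56.0% after scaling to equal sums and 57.5% after upper-quartile scaling. In the fatty acid arm all 14 genes were tested, and 5 rose, 6 fell and 3 did not pass. The sterol arm's share of lower genes was therefore 68.4%, and its median log2 fold change was -0.475, whereas the fatty acid arm had 42.9% lower and 35.7% higher with a median of 0.00, and the median of all tested genes was -0.06. The fall of the sterol arm ran from Hsd17b7 (-0.97), Idi1 (-0.94) and Stard4 (-0.81) to Srebf2 (-0.23), and the rise within the fatty acid arm was led by the desaturases Fads2 (1.14), Fads1 (0.72) and Scd2 (0.54) and by Thrsp (0.56) and Acss2 (0.34). Every fold change compares log2(FPKM + 1), so that of a gene with a low level comes out too small.

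**Figure D1:**
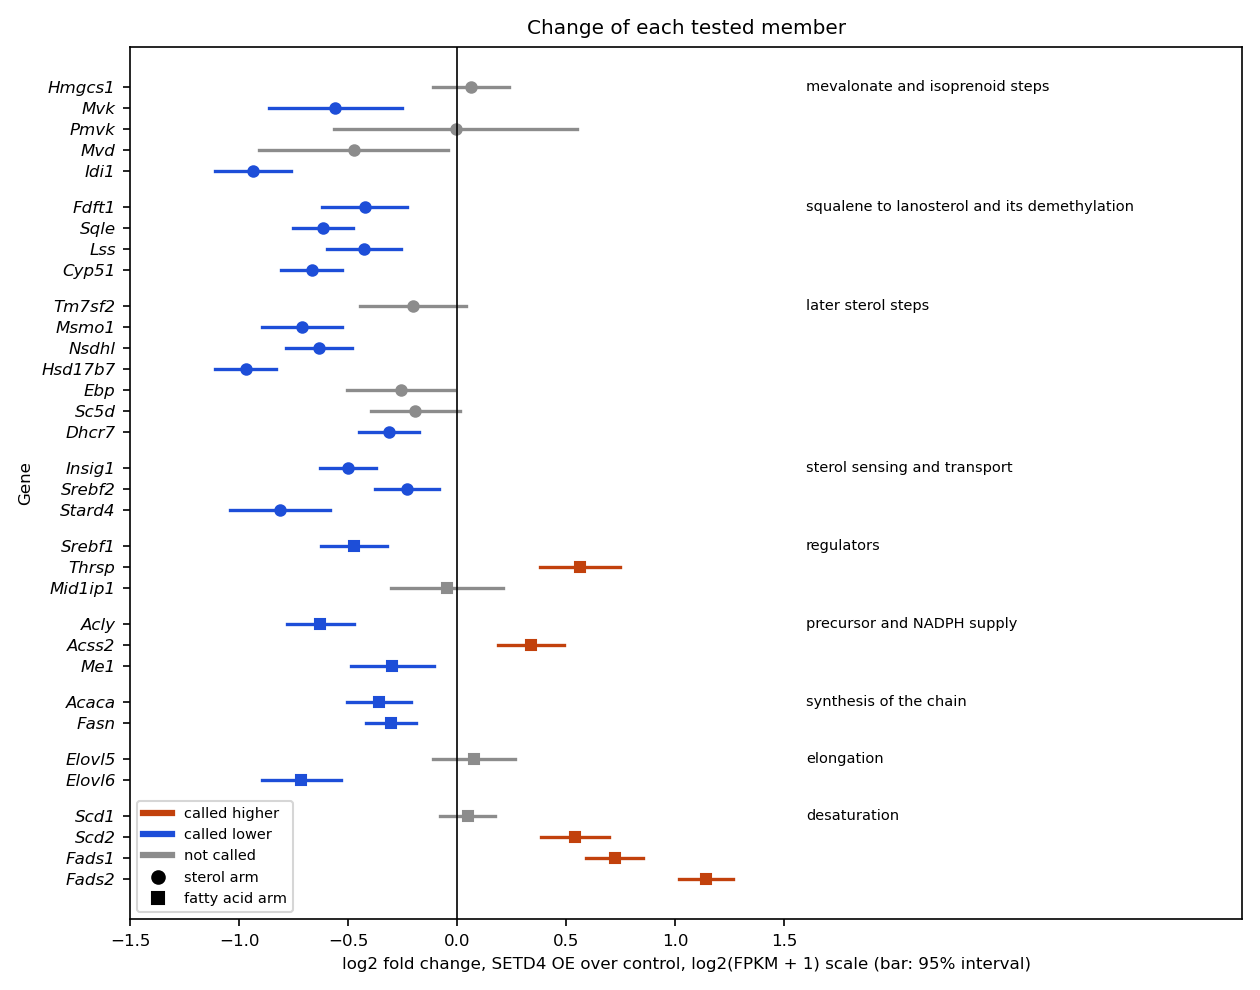
Log2 fold change of each of the 33 tested members, SETD4 OE over control, with its 95% interval (bars), grouped by role; circles are sterol arm genes, squares fatty acid arm genes, and colour gives the call. In the sterol arm 13 intervals of called genes lie below 0 and no gene was called higher (1, Hmgcs1, with upper-quartile scaling or quantile normalization), whereas 3 of 4 desaturases lie above 0 and the chain synthesis genes below it.

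The 3 SETD4 OE values did not overlap the 3 control values for the 24 tested members that were called, 5 higher and 19 lower, and overlapped for the other 9, while 29.1% of all tested genes did not overlap in the higher direction and 36.9% in the lower direction. Without control replicate 1 the sterol arm had 16 of 19 lower, with Mvd, Tm7sf2 and Ebp added. The count was 12 without SETD4 OE replicate 1 or control replicate 3, and 14 without SETD4 OE replicate 2 or 3 or control replicate 2. How the libraries are scaled to each other changed few calls: the sterol arm had 12 to 14 lower genes under 4 other scalings and limma-voom, and the fatty acid arm had 6 higher and 5 lower genes with equal sums or upper quartiles and 6 higher and 4 lower with quantile normalization. In bulk RNA a smaller share of the cells that express a gene and less of its RNA in each cell cannot be told apart.

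Other gene groups moved beside both arms, where 26.0% of all tested genes rose and 33.9% fell. All 15 of 15 genes of a cell cycle list fell, with a median of -1.92 and a summed level of 108.0 to 109.7 FPKM in SETD4 OE, against 416.6 to 429.9 FPKM in the controls. Of 10 markers of astrocytes and quiescent stem cells 9 rose and 0 fell, with a summed level of 2301 to 2398 FPKM in SETD4 OE and 760.1 to 802.3 FPKM in the controls. Markers of mature oligodendrocytes, cells that make much sterol for myelin, rose in 5 of 5 tested genes of 8, with sums of 83.9 to 90.9 FPKM in SETD4 OE and 42.7 to 45.9 FPKM in the controls, and Mog, Mobp and Opalin were under the threshold. Ependymal markers rose in 5 of 5 tested genes of 7, with sums of 53.8 to 72.2 FPKM in SETD4 OE and 22.0 to 26.6 FPKM in the controls. Of 8 markers of oligodendrocyte precursors 6 rose and 2 fell, with sums of 727.0 to 782.4 FPKM in SETD4 OE and 1155 to 1290 FPKM in the controls; Gpr17 rose (1.95) and Olig2 fell (-1.40). Of 4 tested markers of pericytes, smooth muscle and fibroblasts, out of 8, 3 rose and 1, Acta2, fell, with sums of 21.8 to 25.6 FPKM in SETD4 OE and 32.6 to 37.3 FPKM in the controls. Of 5 tested neuroblast and neuron markers, out of 9, 1 rose and 2 fell, with sums of 31.1 to 33.7 FPKM in SETD4 OE and 33.1 to 34.6 FPKM in the controls. The part of these changes in the results on lipid genes was not tested.

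Promoters were read for the members because most sterol genes moved together. RefSeq's table for GRCm38.p6 held windows for 27 of 34 members, 33 windows in all, counting every listed start of a gene. In the 250 bases before the start, CCAAT, the box bound by NF-Y, a factor known to act beside SREBP, was present on either strand in 16 of 16 sterol arm genes (16 of 19 windows) and in 6 of 11 fatty acid arm genes (7 of 14 windows). It was present in 33.8% of all 32851 windows and in 35.7% of the windows of tested genes. The windows below show the sterol genes with the largest fall (Hsd17b7 and Idi1) and the one with the most CCAAT matches (Mvk). They also show the only sterol gene with the sterol regulatory element in the searched form TCACNCCAC (Hmgcs1). The last windows are those of the fatty acid genes with the largest rise and the largest fall (Fads2 and Elovl6), which hold no CCAAT. Capitals mark TCACNCCAC and CCAAT, also where CCAAT lies on the other strand and reads ATTGG, and each line runs 5′ to 3′ along the gene's strand up to its start.
Hsd17b7 (GRCm38.p6, chr1:169969206-169969455, minus strand): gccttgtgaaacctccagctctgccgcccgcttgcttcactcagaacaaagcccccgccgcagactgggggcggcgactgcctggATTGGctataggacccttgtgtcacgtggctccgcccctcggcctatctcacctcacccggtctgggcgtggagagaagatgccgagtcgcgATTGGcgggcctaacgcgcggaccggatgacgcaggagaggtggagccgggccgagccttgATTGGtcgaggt
Idi1 (GRCm38.p6, chr13:8885356-8885605, plus strand): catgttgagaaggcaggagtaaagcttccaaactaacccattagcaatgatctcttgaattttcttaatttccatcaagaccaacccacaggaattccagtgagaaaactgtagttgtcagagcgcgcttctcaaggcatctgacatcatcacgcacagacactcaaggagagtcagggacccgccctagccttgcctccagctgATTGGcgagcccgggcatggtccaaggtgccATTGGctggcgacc
Mvk (GRCm38.p6, chr5:114444019-114444268, plus strand): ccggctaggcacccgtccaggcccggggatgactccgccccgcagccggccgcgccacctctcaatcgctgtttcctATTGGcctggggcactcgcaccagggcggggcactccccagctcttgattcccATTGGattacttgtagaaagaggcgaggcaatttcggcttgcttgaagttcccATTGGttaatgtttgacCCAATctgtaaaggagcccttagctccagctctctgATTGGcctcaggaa
Hmgcs1 (GRCm38.p6, chr13:119690101-119690350, plus strand): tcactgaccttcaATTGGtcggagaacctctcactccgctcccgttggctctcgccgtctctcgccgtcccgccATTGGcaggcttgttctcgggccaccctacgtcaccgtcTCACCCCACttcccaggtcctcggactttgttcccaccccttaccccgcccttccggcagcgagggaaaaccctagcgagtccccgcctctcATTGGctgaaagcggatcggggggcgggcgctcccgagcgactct
Fads2 (GRCm38.p6, chr19:10101504-10101753, minus strand): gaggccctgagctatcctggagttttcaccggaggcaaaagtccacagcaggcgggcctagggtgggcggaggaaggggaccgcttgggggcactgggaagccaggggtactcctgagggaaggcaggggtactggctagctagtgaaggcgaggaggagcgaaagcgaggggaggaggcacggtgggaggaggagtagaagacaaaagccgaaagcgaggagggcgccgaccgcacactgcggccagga
Elovl6 (GRCm38.p6, chr3:129532136-129532385, plus strand): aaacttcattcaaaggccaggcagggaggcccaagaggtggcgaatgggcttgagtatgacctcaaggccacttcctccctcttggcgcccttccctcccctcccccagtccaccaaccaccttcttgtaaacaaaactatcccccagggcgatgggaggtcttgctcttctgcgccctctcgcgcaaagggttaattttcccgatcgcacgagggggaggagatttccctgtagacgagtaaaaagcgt

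The called and the uncalled sterol genes alike held CCAAT, which was also found in Hmgcs1, Pmvk, Mvd, Tm7sf2, Ebp and Sc5d. Mvk held 5 matches, Hsd17b7 and Hmgcs1 3 each, and Idi1 2. The element TCACNCCAC lay in 1 of 16 sterol arm genes (1 of 19 windows), 137 bases before the start of Hmgcs1. In the fatty acid arm it lay in 0 of 11 genes (0 of 14 windows). It lay in 1.05% of all windows and 1% of the windows of tested genes. Only this form of the sterol regulatory element was searched, so sites with another spelling were not counted. The E-box CACGTG lay in 4 of 16 sterol arm genes (Dhcr7, Hsd17b7, Insig1 and Sc5d), in 4 of 19 windows. In the fatty acid arm it lay in 1 of 11 genes (Elovl5), in 1 of 14 windows. It lay in 6.02% of all windows and 8.41% of the windows of tested genes. The GC box GGGCGG lay in 15 of 16 sterol arm genes (16 of 19 windows) and 6 of 11 fatty acid arm genes (7 of 14 windows). Its share was 32.7% of all windows and 58.9% of the windows of tested genes. All motifs were searched on both strands, overlapping matches were each counted, and a match is a description of the letters only. Fdft1, Sqle, Fdps, Stard4, Fads1, Scd1 and Scd2 had no window in the table.

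The mevalonate steps were uneven. Hmgcs1 (ENSMUSG00000093930; mm39 chromosome 13, 120151915 to 120169796, plus strand) encodes the cytosolic synthase of the early mevalonate route. It was at 110.4, 131.3 and 120.9 FPKM in SETD4 OE and at 114.0, 114.1 and 118.3 FPKM in the controls, so the groups overlapped and the SETD4 OE libraries both undercut and exceeded the controls. Its log2 fold change was 0.06 (95% interval -0.11 to 0.24, adjusted p = 0.498, limma), and it was called higher with upper-quartile scaling (0.21, adjusted p = 0.0408) and quantile normalization (0.27, adjusted p = 0.0249). It was the most abundant sterol arm gene and took 26.5%, 29.1% and 26.6% of the arm's summed FPKM in SETD4 OE, against 20.6%, 19.5% and 20.2% in the controls.

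Mvk, mevalonate kinase, fell to 18.7, 17.6 and 21.3 FPKM in SETD4 OE, against 24.2, 34.3 and 28.4 FPKM in the controls (limma adjusted p = 0.00779, log2 fold change -0.56, SE 0.13). The SETD4 OE values lay close together and below a wide control range. Pmvk, which adds the next phosphate, was at 13.6, 9.39 and 13.6 FPKM in SETD4 OE and at 8.24, 16.0 and 13.4 FPKM in the controls, and its interval of -0.57 to 0.55 was the widest of all members. Mvd, the decarboxylase that follows, was at 17.3, 13.9 and 18.1 FPKM in SETD4 OE and at 17.2, 28.6 and 25.0 FPKM in the controls. Control replicate 1 alone reached down into the SETD4 OE range, and Mvd missed the threshold (log2 fold change -0.48, adjusted p = 0.0582, limma) but passed with all libraries under a minimum mean of 5 FPKM (adjusted p = 0.0475) and with limma-voom (0.0362), and without control replicate 1 (-0.68, adjusted p = 0.00346). For all of Mvk, Pmvk and Mvd control replicate 1 was the lowest control.

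Idi1 (ENSMUSG00000058258; chromosome 13, 8935537 to 8942487, plus strand), which interconverts the isoprenoid building blocks, had one of the largest falls. It was at 11.7, 13.6 and 13.2 FPKM in SETD4 OE and at 26.8, 23.9 and 25.5 FPKM in the controls, and its mean fell by 49.6% (limma adjusted p = 4.86e-05, log2 fold change -0.94, SE 0.07). All 3 SETD4 OE values were far below all 3 controls. A pseudogene with 684 bases identical to Idi1, Gm13502, was at 1.10 FPKM in SETD4 OE and 1.73 FPKM in the controls.

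Fdps, which joins the building blocks into farnesyl diphosphate, had a mean under 1 FPKM and was left out of the test. It was at 0.542, 0.551 and 0.699 FPKM in SETD4 OE and at 0.935, 1.11 and 0.777 FPKM in the controls, and all SETD4 OE values were below the controls. Fitted without a filter on low values it had a log2 fold change of -0.28 (SE 0.11, adjusted p = 0.1197, limma). These values are uncertain. Fdps overlaps 7512 bases of Gm43738, a protein-coding entry on the same strand, and their transcripts share 929 bases that are 100% identical. Gm43738 was at 0 FPKM in SETD4 OE and in the controls, and how reads that fit both entries were counted is not given. Processed pseudogenes nearly identical to Fdps were listed at higher levels, so its reads may also have been divided among copies. Gm3571, 98.9% identical over 1062 bases, was at 6.27, 6.62 and 7.14 FPKM in SETD4 OE and at 11.6, 16.8 and 15.1 FPKM in the controls (adjusted p = 0.000453, limma), lower in every SETD4 OE library. Fdps and its 4 listed processed pseudogenes together held 157, 169 and 187 reads in SETD4 OE and 315, 461 and 353 reads in the controls. The summed reads did not overlap between the groups and were lower in SETD4 OE.

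The steps from squalene to lanosterol fell as a block, with 4 of 4 genes called lower. Sqle, squalene epoxidase, a control point of the pathway, was at 23.8, 25.5 and 25.7 FPKM in SETD4 OE and at 37.0, 40.1 and 39.7 FPKM in the controls (limma adjusted p = 0.000113, log2 fold change -0.62, SE 0.06). Cyp51, the lanosterol demethylase, was at 31.8, 34.4 and 35.8 FPKM in SETD4 OE and at 54.8, 54.2 and 54.7 FPKM in the controls (limma adjusted p = 7.99e-05, log2 fold change -0.67, SE 0.06). Both genes kept clear gaps between the groups, and the Cyp51 controls were nearly equal. Lss, which closes the ring to lanosterol, was lower in abundance, at 5.03, 5.72 and 5.95 FPKM in SETD4 OE and at 7.43, 7.90 and 8.12 FPKM in the controls (log2 fold change -0.43, SE 0.07).

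Fdft1, squalene synthase and the first enzyme committed to sterols, was at 21.7, 25.6 and 27.2 FPKM in SETD4 OE and at 33.3, 33.8 and 33.5 FPKM in the controls (limma adjusted p = 0.00375, log2 fold change -0.42, SE 0.08). Its listed span overlaps 774 bases of Ctsb, a lysosomal protease gene on the opposite strand, and no strand setting was given for the counting. Ctsb rose, at 97.7, 103.5 and 105.9 FPKM in SETD4 OE and 56.2, 57.3 and 56.7 FPKM in the controls, so Fdft1 fell while its neighbour rose.

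Of the 7 later sterol genes 4 fell and 3 did not pass. Hsd17b7 (ENSMUSG00000026675; chromosome 1, 169777104 to 169796810, minus strand), a keto-reductase of sterol demethylation, had the largest fall of all members. It was at 4.22, 4.48 and 4.74 FPKM in SETD4 OE and at 9.75, 9.47 and 9.97 FPKM in the controls, and its mean fell by 54.0% (limma adjusted p = 1.63e-05, log2 fold change -0.97, SE 0.06). Within each group the libraries were nearly alike, and the groups were far apart. Msmo1 and Nsdhl, which act in the same demethylation, fell with it.

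Msmo1, the methylsterol oxidase, was at 19.6, 21.8 and 22.3 FPKM in SETD4 OE and at 38.7, 33.3 and 34.3 FPKM in the controls (log2 fold change -0.71, SE 0.08). Nsdhl, the decarboxylating dehydrogenase on the X chromosome, was at 13.3, 15.4 and 14.3 FPKM in SETD4 OE and at 22.5, 22.4 and 23.5 FPKM in the controls (log2 fold change -0.63, SE 0.06). Dhcr7, a reductase at the end of the route, was at 10.2, 11.1 and 10.8 FPKM in SETD4 OE and at 13.0, 14.1 and 13.4 FPKM in the controls (log2 fold change -0.31, SE 0.06). All 3 were separated from the controls, with adjusted p of 0.000229, 0.00016 and 0.00293 for Msmo1, Nsdhl and Dhcr7 (limma).

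The later genes that did not pass were Tm7sf2, Ebp and Sc5d, a reductase, an isomerase and a desaturase of the sterol ring. Their log2 fold changes were -0.20 (95% interval -0.45 to 0.04), -0.26 (-0.51 to -0.01) and -0.19 (-0.40 to 0.01), with adjusted p of 0.129, 0.0665 and 0.0923 (limma). In Tm7sf2 and Ebp the lowest control was again replicate 1, at 6.15 and 7.30 FPKM, whereas in Sc5d control replicate 1 was the highest, at 18.95 FPKM. Without control replicate 1 Tm7sf2 (adjusted p = 0.0061) and Ebp (0.0174) were called lower. Ebp was also called with the replicate number as a block (0.0243) and without SETD4 OE replicate 3 (0.0428), and Sc5d without SETD4 OE replicate 2 (0.0373) or control replicate 2 (0.0405). Tm7sf2 overlaps 532 bases of Vps51 on the same strand, at 12.3 FPKM in SETD4 OE and 10.4 FPKM in the controls.

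All 3 genes of sterol sensing and transport fell. Insig1, which retains the SREBP and Scap complex and is itself a classical SREBP target, was at 33.1, 34.6 and 36.1 FPKM in SETD4 OE and at 48.4, 49.5 and 50.2 FPKM in the controls (limma adjusted p = 0.000215, log2 fold change -0.50, SE 0.05). Stard4, which carries sterol between membranes, was at 6.202, 6.9 and 5.287 FPKM in SETD4 OE and at 12.6, 10.9 and 11.1 FPKM in the controls, and its mean fell by 46.7% (limma adjusted p = 0.000348, log2 fold change -0.81, SE 0.10). Both were lower in each SETD4 OE library than in any control. Srebf2, which encodes SREBP2 itself, was at 48.0, 49.2 and 49.3 FPKM in SETD4 OE and at 53.4, 58.5 and 60.6 FPKM in the controls (limma adjusted p = 0.0157, log2 fold change -0.23, SE 0.06). This is the smallest change called among the sterol genes, and its call was lost with equal sums (adjusted p = 0.216), upper-quartile scaling (0.218), quantile normalization (0.681), and without SETD4 OE replicate 1 (0.0563) or control replicate 3 (0.0675).

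**Figure D2:**
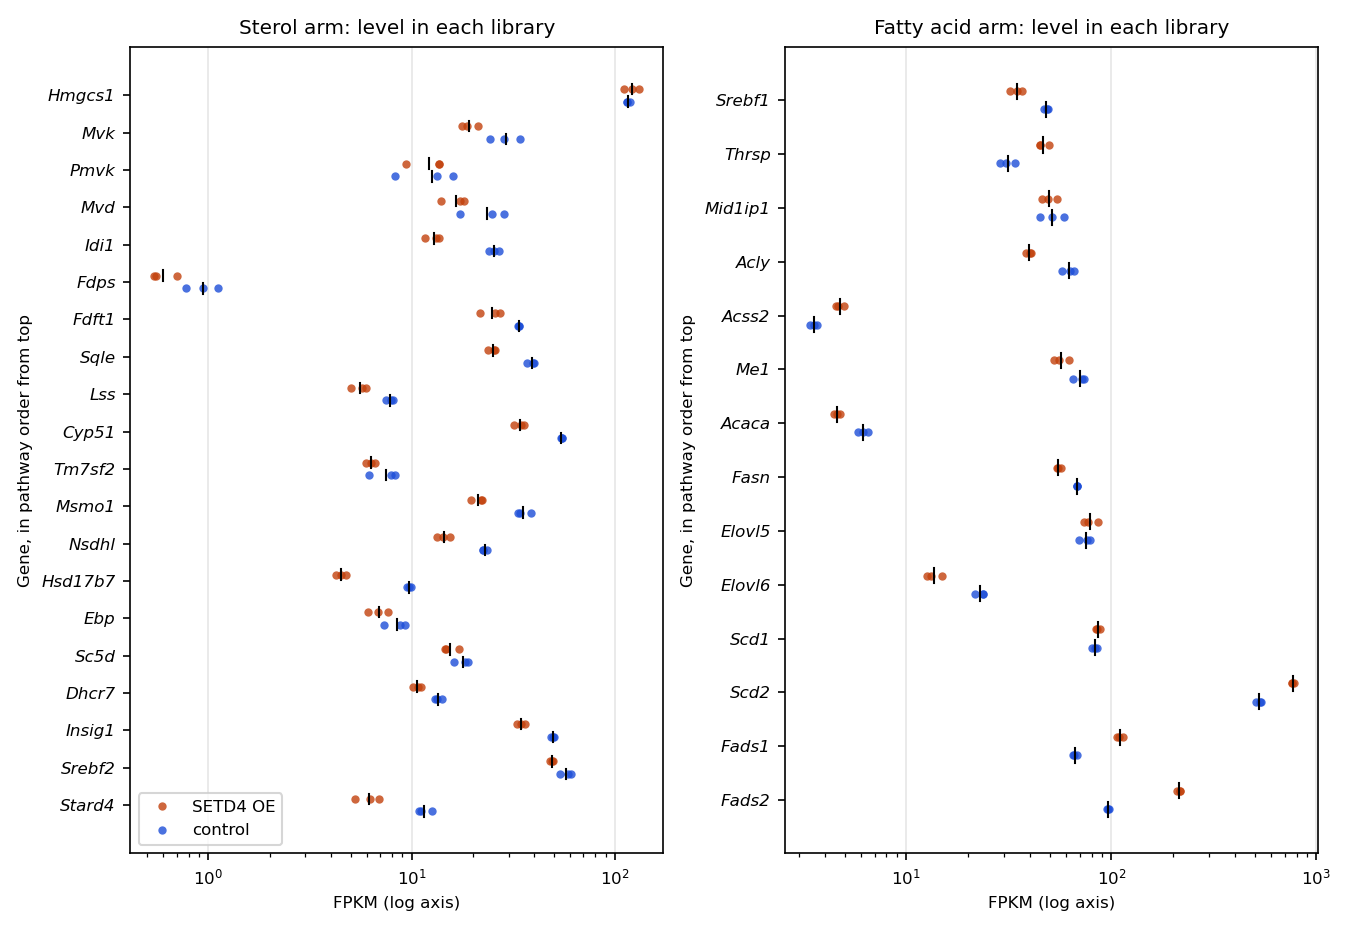
FPKM of every member in each library on a log axis (points; black ticks are group means, 3 libraries each), SETD4 OE above control for each gene, with the sterol arm on the left and the fatty acid arm on the right. Scd2 is the most abundant member in both groups at 756 to 779 FPKM in SETD4 OE and 510 to 534 FPKM in the controls, and Fdps the least.

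Among the regulators of the fatty acid arm, Srebf1 fell and Thrsp rose. Srebf1 (ENSMUSG00000020538; chromosome 11, 60089915 to 60113407, minus strand), which encodes SREBP1, was at 34.8, 32.0 and 36.8 FPKM in SETD4 OE and at 47.1, 48.9 and 48.8 FPKM in the controls (limma adjusted p = 0.000648, log2 fold change -0.47, SE 0.06). Thrsp, known as Spot 14 and linked to lipogenesis in liver and mammary gland, was at 45.0, 44.7 and 49.6 FPKM in SETD4 OE and at 28.75, 34.04 and 30.73 FPKM in the controls (limma adjusted p = 0.000706, log2 fold change 0.56, SE 0.08). Both genes were separated between the groups, in opposite directions. Mid1ip1, a paralog of Thrsp whose protein activates acetyl-CoA carboxylase, was at 49.1, 45.8 and 54.3 FPKM in SETD4 OE and at 44.9, 58.7 and 51.2 FPKM in the controls, with overlapping groups and a log2 fold change of -0.05 (95% interval -0.30 to 0.21) whose sign turned under every other scaling.

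The genes that supply acetyl-CoA and NADPH went both ways. Acly, which makes acetyl-CoA from citrate for both arms, was at 40.2, 38.5 and 40.5 FPKM in SETD4 OE and at 57.4, 65.8 and 62.7 FPKM in the controls (limma adjusted p = 0.000176, log2 fold change -0.63, SE 0.07). Acss2, which makes it from acetate, was low but higher in each SETD4 OE library, at 4.56, 4.99 and 4.67 FPKM, than in the controls, at 3.37, 3.56 and 3.68 FPKM (limma adjusted p = 0.00301, log2 fold change 0.34, SE 0.06). The RNA of the citrate enzyme gene thus fell while that of the acetate enzyme gene rose, at a far lower level. Me1, the cytosolic malic enzyme, was at 52.5, 62.3 and 55.7 FPKM in SETD4 OE and at 71.5, 65.1 and 73.3 FPKM in the controls (limma adjusted p = 0.0163, log2 fold change -0.30, SE 0.08). The highest SETD4 OE value came near the lowest control, and the call was lost under the replicate block (adjusted p = 0.0543), 3 scalings (equal sums 0.154, upper quartile 0.181, quantile 0.410) and without SETD4 OE replicate 1 (0.0593), SETD4 OE replicate 3 (0.0504) or control replicate 3 (0.0626).

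Both genes that build the chain fell, by less than most of the sterol genes that were called. Fasn (ENSMUSG00000025153; chromosome 11, 120696672 to 120715373, minus strand), fatty acid synthase, was at 54.1, 54.7 and 56.6 FPKM in SETD4 OE and at 68.1, 68.2 and 68.3 FPKM in the controls (limma adjusted p = 0.00154, log2 fold change -0.30, SE 0.05). The controls were nearly identical, and the call was lost with quantile normalization (-0.11, adjusted p = 0.116). Acaca, acetyl-CoA carboxylase, which makes the malonyl-CoA used by Fasn, was at 4.74, 4.42 and 4.59 FPKM in SETD4 OE and at 6.50, 5.80 and 6.18 FPKM in the controls (limma adjusted p = 0.00219, log2 fold change -0.36, SE 0.06). Its value is uncertain because the processed pseudogene Gm5182, 99.2% identical over 6118 bases, was listed at 3.33 FPKM in SETD4 OE and 4.61 FPKM in the controls.

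The elongases differed from each other. Elovl6, which lengthens saturated and monounsaturated chains, was at 12.6, 15.0 and 13.2 FPKM in SETD4 OE and at 23.6, 21.5 and 23.6 FPKM in the controls, and its mean fell by 40.7% (limma adjusted p = 0.000206, log2 fold change -0.72, SE 0.08). This was the largest fall in the fatty acid arm. Elovl5, which lengthens polyunsaturated chains, was at 77.0, 86.3 and 73.6 FPKM in SETD4 OE and at 78.4, 69.6 and 76.4 FPKM in the controls, with overlapping groups (log2 fold change 0.08, 95% interval -0.11 to 0.26). The level of Elovl5 over that of Elovl6 was 5.83 ± 0.281 in SETD4 OE and 3.27 ± 0.048 in the controls (SD, n = 3 each).

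Rises were most frequent among the desaturases, with 3 of 4 called higher and 0 lower, or 4 of 4 with equal sums, upper-quartile scaling or quantile normalization. Fads2 (ENSMUSG00000024665; chromosome 19, 10040129 to 10079110, minus strand), the desaturase that starts the conversion of essential fatty acids to longer polyunsaturated ones, was at 208.6, 216.1 and 216.0 FPKM in SETD4 OE and at 96.1, 95.1 and 97.2 FPKM in the controls. Its mean rose by 122.1%, the largest rise of all members (limma adjusted p = 5.75e-06, log2 fold change 1.14, SE 0.05). Fads1 (ENSMUSG00000010663; chromosome 19, 10160252 to 10174241, plus strand), which acts later in the same route, was at 109.1, 114.4 and 106.5 FPKM in SETD4 OE and at 65.6, 65.0 and 68.2 FPKM in the controls (limma adjusted p = 4.31e-05, log2 fold change 0.72, SE 0.06). In both genes every SETD4 OE library was far above every control.

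Scd2 (ENSMUSG00000025203; chromosome 19, 44282113 to 44295303, plus strand), the stearoyl-CoA desaturase typical of the brain, was at 761.3, 778.9 and 756.0 FPKM in SETD4 OE and at 533.1, 509.7 and 534.3 FPKM in the controls, and its mean rose by 45.6% (limma adjusted p = 0.000391, log2 fold change 0.54, SE 0.07). Its paralog Scd1, better known from liver and adipose tissue, was at 85.3, 88.2 and 83.9 FPKM in SETD4 OE and at 85.1, 80.5 and 83.0 FPKM in the controls. The groups overlapped, and Scd1 did not pass (log2 fold change 0.05, 95% interval -0.08 to 0.18, adjusted p = 0.456, limma) but was called higher with equal sums (0.18, adjusted p = 0.0386), upper-quartile scaling (0.20, 0.0278) and quantile normalization (0.24, 0.0222). The ratio of Scd2 to Scd1 within a library, which no scaling factor changes, was 8.93 ± 0.090 in SETD4 OE and 6.34 ± 0.091 in the controls (SD, n = 3 each). The transcripts share 623 bases that are 95.5% identical, so some reads may have been counted for the other gene.

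Fads2 and Fads1 lie side by side on chromosome 19, 81141 bases apart, and Scd2 and Scd1 lie 87590 bases apart on the same chromosome. Of the 452 tested genes of that chromosome 24.8% rose, with a median log2 fold change of -0.12. The ratio of Fads2 to Fads1 was 1.94 ± 0.074 in SETD4 OE and 1.45 ± 0.022 in the controls, so the neighbours did not rise equally. The ratio of Srebf2 to Srebf1 was 1.42 ± 0.105 in SETD4 OE and 1.19 ± 0.054 in the controls (SD, n = 3 each for both ratios). Without its 4 desaturases the fatty acid arm had 2 of 10 genes higher and 6 lower, with a median of -0.30.

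Summed over each library, the arms moved apart. The sterol arm's 20 genes summed to 416.3, 451.0 and 454.0 FPKM in SETD4 OE and to 554.5, 584.8 and 586.1 FPKM in the controls. The fatty acid arm's 14 genes summed to 1539, 1586 and 1552 FPKM in SETD4 OE and to 1210, 1192 and 1227 FPKM in the controls. Neither sum overlapped between the groups, with the sterol sum lower and the fatty acid sum higher in SETD4 OE, and this held after scaling to equal sums, the median of ratios or upper quartiles (sterol sums of 429.6 to 478.6 FPKM in SETD4 OE and 535.8 to 570.4 FPKM in the controls). The ratio of the sums was 3.70, 3.52 and 3.42 in SETD4 OE and 2.18, 2.04 and 2.09 in the controls.

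The fatty acid sum was weighted to 1 gene. Scd2 took 49.5%, 49.1% and 48.7% of it in SETD4 OE and 44.1%, 42.8% and 43.5% in the controls. Without Scd2 the arm summed to 777.4, 807.4 and 795.9 FPKM in SETD4 OE and to 676.4, 681.9 and 693.1 FPKM in the controls, still without overlap and higher in SETD4 OE. Without all 4 desaturases the sums were 374.4, 388.7 and 389.5 FPKM in SETD4 OE and 429.6, 441.3 and 444.8 FPKM in the controls, and the direction was the reverse. The higher sum of the fatty acid arm in SETD4 OE thus rested on the desaturases.

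**Figure D3:**
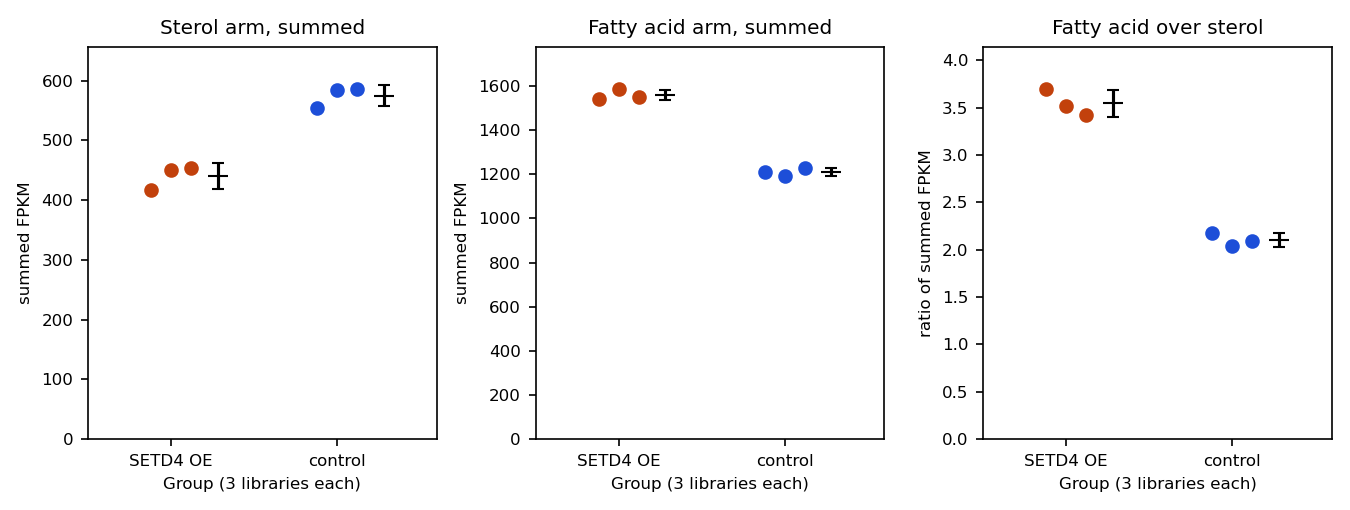
Summed FPKM of the sterol arm (left), of the fatty acid arm (middle) and their ratio (right) in each library; points are libraries, and black marks are the mean and SD of 3 libraries per group. The sterol sum is 416 to 454 in SETD4 OE and 555 to 586 in the controls, the fatty acid sum is 1539 to 1586 in SETD4 OE and 1192 to 1227 in the controls, and the ratio is 3.42 to 3.70 in SETD4 OE and 2.04 to 2.18 in the controls.

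Genes next to the sterol arm moved the same way. Of 6 other genes of the pathway 6 fell and 0 rose, with a median of -0.50 (5 of 6 under each of 4 other scalings), where 33.9% of all tested genes fell. Acat2, the thiolase at the entry of the pathway, was at 16.4, 18.6 and 17.6 FPKM in SETD4 OE and at 21.7, 29.2 and 27.8 FPKM in the controls (limma adjusted p = 0.00462, log2 fold change -0.55, SE 0.11). Its groups did not overlap, and control replicate 1 was the lowest control.

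Isoprenoid branches, which use farnesyl diphosphate for prenylation, dolichol and ubiquinone, had 8 of 14 genes lower and 0 higher, or 57.1% lower. Over all tested genes 33.9% were lower and 26.0% higher. With upper-quartile scaling 5 of the 14 were lower, and their median was -0.098 in place of -0.235. Pdss1, of the ubiquinone side chain, was at 1.70, 2.14 and 1.57 FPKM in SETD4 OE and at 4.60, 4.31 and 4.16 FPKM in the controls (log2 fold change -0.94, SE 0.09). Rabggtb, which prenylates Rab proteins, and Nus1, of dolichol synthesis, fell by 0.70 and 0.56 on the log2 scale. Among genes that process SREBP or control sterol-dependent degradation 1 of 12 was higher and 4 were lower, or 33.3%, near the 33.9% of all tested genes, with a median of -0.12 (2 lower, with a median of 0.01 to 0.02, under equal sums, upper quartiles or quantile normalization). Scap, the escort of SREBP, was at 16.7 FPKM in SETD4 OE and 18.0 FPKM in the controls and did not pass (adjusted p = 0.144, limma). Erlin1, which binds sterols and Insig in the endoplasmic reticulum, fell (-0.69, SE 0.05), as did Mbtps2, a membrane protease that releases SREBP (-0.40, SE 0.09), and Faf2 (-0.23, SE 0.05).

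In a list of LXR factors, LXR targets and sterol export genes, most tested genes moved against the sterol arm. Of 9 tested genes of 12, 6 rose and 0 fell (5 to 8 rose under the other scalings and tests), with a median of 0.575. The share that rose was 66.7%, beside 26.0% of all tested genes. Nr1h2 (0.17), Lpcat3 (0.11) and Osbpl5 (-0.09) did not pass, and Abcg1, Mylip and Ch25h were under the mean of 1 FPKM needed for the test. Abca1, the cholesterol exporter, was at 82.1, 77.4 and 72.8 FPKM in SETD4 OE and at 41.4, 32.5 and 34.5 FPKM in the controls (limma adjusted p = 8.98e-05, log2 fold change 1.08, SE 0.10). Soat1, which esterifies cholesterol for storage, was at 24.6, 27.3 and 23.4 FPKM in SETD4 OE and at 14.1, 12.6 and 13.0 FPKM in the controls (log2 fold change 0.87, SE 0.07). Both were separated between the groups, and Npc1, which moves cholesterol out of lysosomes, rose too (0.60, SE 0.06). Srebf1, counted in the fatty acid arm, is also a textbook LXR target and fell (-0.47, SE 0.06). Whether LXR activity changed was not tested.

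Genes around the fatty acid arm moved in both directions. Of 16 tested genes of 20 for fatty acid synthesis and elongation 6 rose and 6 fell, or 37.5% each, beside 26.0% higher and 33.9% lower over all tested genes. Among them were the desaturase-like Fads3 (0.74, SE 0.11), Elovl1, which lengthens very long chains (-0.52, SE 0.07), and the dehydratase Hacd2 (0.47, SE 0.08). The count of higher genes was 3 under the replicate block and without SETD4 OE replicate 2 or 3 or control replicate 2. Of 17 tested genes of 18 for acyl-CoA and glycerolipid synthesis 7 rose and 8 fell (7 and 5 with equal sums or upper quartiles, 6 and 5 without SETD4 OE replicate 2). The 7 and 8 genes were 41.2% and 47.1% of those tested, beside 26.0% higher and 33.9% lower over all tested genes. Gpam, the mitochondrial acyltransferase that opens glycerolipid synthesis, was at 64.5, 67.2 and 62.1 FPKM in SETD4 OE and at 24.7, 22.8 and 23.4 FPKM in the controls (limma adjusted p = 3.81e-06, log2 fold change 1.41, SE 0.06). Acsl3, an acyl-CoA synthetase of lipid droplets, was at 46.1, 46.8 and 43.7 FPKM in SETD4 OE and at 20.3, 18.2 and 19.4 FPKM in the controls (log2 fold change 1.20, SE 0.06). Both rises were larger than that of any member of the fatty acid arm, and Lpin1, a phosphatidate phosphatase, rose as well (0.84, SE 0.08).

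A further list was drawn around the supply of NADPH, the reductant of both arms, and not all of its enzymes make NADPH themselves. Of 9 tested genes of 10, 6 fell and 1 rose (4 fell with equal sums, upper quartiles or quantile normalization). Over all tested genes 33.9% fell and 26.0% rose. Idh1, the cytosolic isocitrate dehydrogenase, was at 79.0, 89.0 and 82.1 FPKM in SETD4 OE and at 58.2, 60.8 and 55.4 FPKM in the controls (log2 fold change 0.51, SE 0.07). Tkt of the pentose phosphate pathway (-0.49, SE 0.08) and the mitochondrial malic enzyme gene Me2 (-0.58, SE 0.08) fell. Among these lists, the cell cycle genes Rrm2 (-2.34), Mcm5 (-2.29) and Aurkb (-2.27) had larger changes than any lipid gene that was called.

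**Figure D4:**
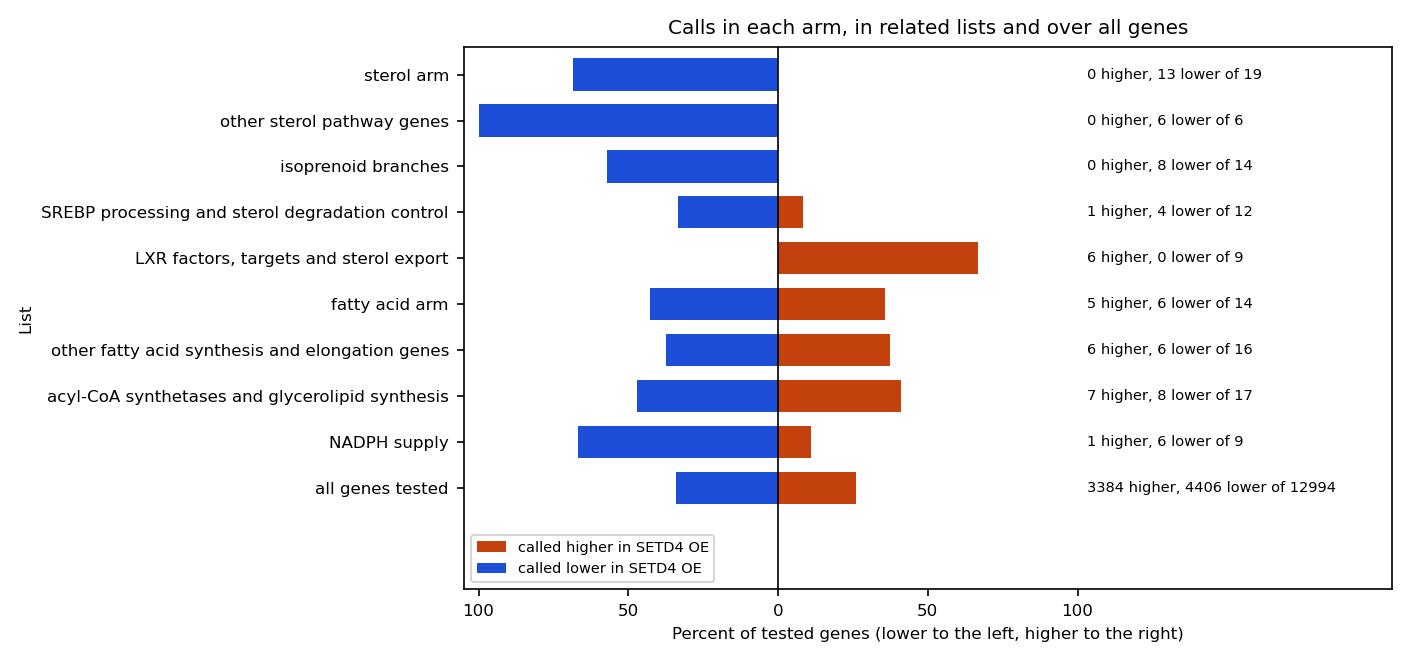
Percent of tested genes called higher (right) and lower (left) in SETD4 OE in each arm, in 7 related lists and over all 12994 tested genes, with the counts beside each bar. The sterol arm and the 6 other sterol genes have bars to the left only (1 sterol gene, Hmgcs1, is called higher with upper-quartile or quantile scaling), the LXR and export list to the right only, and the fatty acid arm to both sides.

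Several members overlap other genes or have near copies, and their values may hold reads of these. Besides Fdps, Fdft1, Acaca, Idi1, Scd1 and Scd2, Cyp51 shares 166 bases with Akap9 on the opposite strand (5.32 FPKM in SETD4 OE and 4.30 FPKM in the controls). Acss2 overlaps Gss on the opposite strand, which was at 8.23 FPKM in SETD4 OE and 11.4 FPKM in the controls, while Acss2 itself rose. Srebf1 overlaps Rai1 over 109 bases, at 7.18 FPKM in SETD4 OE and 8.20 FPKM in the controls. Me1 has a processed pseudogene, Gm7049, that is 98.5% identical over 1638 bases but was listed at 0.148 FPKM in SETD4 OE and 0.131 FPKM in the controls.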

How the data were processed

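Total RNA of 6 samples had been sequenced, 3 per group, with groups and replicate numbers taken from the sample titles. The submitters' processing notes name HISAT2 2.0.5 and mm39. How reads were counted, on which strand and with which annotation is not given in the sources used here. Per the file headers, the authors deposited 1 table per group with gene coordinates, lengths and a value per library. Read from the values, since no header names the unit, the authors had divided reads by gene length and a library size before deposit, giving FPKM. That size was not the sum of the listed reads. Within a library, 100% of the values multiplied by gene length were whole multiples of the worth of 1 read (tolerance 0.05 reads), from which reads per gene were recovered.

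FPKM values were log2-transformed after adding 1. A gene was tested if its average across all libraries reached 1 FPKM, which left 12994 of 55802. Groups were compared with limma 3.58.1 (R 4.3.3, mean-variance trend, two-sided, no block) with Benjamini-Hochberg adjustment over all genes tested. Tested genes had a median of 534.5 reads and a median standard error of 0.08. The limma step was first tested on simulated reads. No library was a repeat: chi-square per degree of freedom was at least 3.89 for every pair. The members and the 17 related lists were chosen with earlier results of these data known. Named genes outside the members were up to 3 called genes with the largest change from each pathway list, Setd4, and markers that check the cell type. Some genes that this rule names are not reported here. Overlapping genes, near copies, Scap and the LXR list genes that were not called or not tested were named after their values were seen. Promoter sequences are RefSeq's for GRCm38.p6. Near-identical copies were sought with blastn 2.17.0 among GENCODE transcripts of GRCm38, with at least 95% identity over 150 bases. Figures were drawn with matplotlib 3.10.9. Alternatives were other filters, adding 0.1 in place of 1, a replicate block, 4 other scalings, limma-voom on the recovered reads, and leaving out each library.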

Additional observations from a re-analysis of the deposited data

How the results depend on the processing

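Over 15 other settings, the 5 members called higher stayed so in 74 of 74 values, and the 19 called lower in 272 of 285. The 13 lost calls were those of Srebf2, Me1 and Fasn given in the report, and 14 values of uncalled members passed. Signs turned only for Pmvk (0.116 with equal sums, 0.056 with the median of ratios, 0.132 with upper quartiles, 0.108 with quantile normalization, 0.056 with limma-voom, -0.259 to 0.179 when 1 library was left out) and Mid1ip1 (in the same order 0.084, 0.02, 0.1, 0.146, 0.02, and -0.142 to 0.049), neither of which passed under any. Equal sums and upper quartiles raised the median of all genes by 0.11 and 0.13, and 56.0% and 57.5% of calls were then higher, against 43.4% as reported. The sterol median of -0.475 was -0.349 with equal sums, -0.333 with upper quartiles and -0.331 with quantile normalization, and relative to the median of all genes it ran from -0.47 to -0.33 over all settings. The number of sterol genes called higher was 1 with upper quartiles and with quantile normalization. The fatty acid median of 0.00 has no stable sign: it was -0.047 with a mean of at least 5 FPKM, 0.132 with equal sums, 0.069 with the median of ratios, 0.149 with upper quartiles, 0.195 with quantile normalization, 0.07 with limma-voom, and -0.037 to 0.027 when 1 library was left out. With a mean of at least 5 FPKM 1881 genes were called higher, against 3384. Fewer genes were then tested (8057), and 35.8% of calls were higher, against 43.4%. The causes of these shifts were not tested. Same-numbered samples did not deviate together (correlations of -0.07, -0.23 and 0.08), and differently numbered samples had correlations of -0.25 to 0.30. With 3 samples per group this cannot show whether the numbers pair the samples. With the replicate block, 14 sterol genes fell (13 without it), and 5 fatty acid genes rose and 5 fell (5 and 6), so only Ebp and Me1 changed. Low members such as Acss2, Acaca and Hsd17b7 are understated by the log2(FPKM + 1) scale, and 3 samples per group limit the precision.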
